A study of Rattus norvegicus with 24 samples.

Results

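Liver RNA of rats 2 days after burn injury was compared with liver RNA of sham rats of the same day, on 3 burn and 3 sham oligonucleotide arrays. These 6 arrays were taken by their sample titles from a series of 24 arrays that covers days 1, 2, 4 and 7. In the titles the letter b was read as burn, after the title of the series, and s as sham, after descriptions that speak of a sham control. The description of burn replicate 1 of day 2 also speaks of a sham control, against its title, and the title was followed. Every array held total RNA of whole liver. The labels give no strain, age or sex of the rats, no extent of the burn and no account of what sham rats underwent. They also leave unsaid whether each array had its own rat, and the p-values cover the spread between arrays alone, which may be technical.

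As background, the liver answers a severe burn with the acute-phase response. Inflammatory cytokines, interleukin-6 foremost, reach hepatocytes through the blood and signal there through STAT3. Hepatocytes then raise the transcripts of positive acute-phase proteins, which they secrete into plasma, and lower those of negative ones such as albumin. Several of these transcripts are among the most abundant of the liver, and others are nearly silent until the response begins.

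Which row of the value table holds which of these transcripts could not be read. Of 15866 rows tested, 12783 are listed under 1 gene symbol. For 1490 genes listed for exactly 2 rows, the levels of the pair correlated at -0.0481 across genes on the day 2 arrays. The 2 rows listed under albumin, the defining transcript of liver, stood at percentiles 9.06 and 71.3 of level. The tissue could therefore not be checked by its markers, no gene list was read, and no sequence is shown. Rows are named here by their position from the top of the table, as in row 422. A row was taken to hold 1 transcript on all arrays of days 2, 4 and 7, which was not tested here. The 57 array control rows were left out.

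Levels are given as log2(signal + 16) after quantile normalization, so 1 unit is a doubling except in dim rows, where the added 16 shrinks differences. Differences are burn minus sham and carry a standard error (SE) from limma, a linear model fitted to all rows of the 18 arrays of days 2, 4 and 7. A row was called at a limma p under 0.05 after Benjamini-Hochberg adjustment over all rows.

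On day 2 the largest differences were upward, and a pair of rows stood far above the rest. Row 422 read a deposited signal of 1346, 1212 and 3483 on the burn arrays, and 5, 8.3 and 332 on sham replicates 1, 2 and 3. On the log2 scale these were 10.44, 10.25 and 11.80 in burn against 4.38, 4.50 and 8.38 in sham. All burn arrays lay above all sham arrays, and the sham arrays did not stand together: replicates 1 and 2 were near the floor of the scale and replicate 3 was far above them. The difference was 5.08 ± 0.97 (SE, n = 3 each), with a limma adjusted p of 0.113.

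Row 15384 followed the same pattern, at 10.26, 10.25 and 11.37 in burn and 4.55, 4.63 and 8.25 in sham. Its difference was 4.82 ± 0.89 (SE), with a limma adjusted p of 0.0996. Since sham replicates 1 and 2 were near the floor, the size of both differences is set in part by the constant added to the signal. With 64 in place of 16, rows 422 and 15384 differed by 3.93 and 3.74 (limma adjusted p = 0.0488 each), and with 1 by 6.23 and 5.78 (limma adjusted p = 0.18 each). Over the 18 arrays the levels of rows 422 and 15384 correlated at 0.977 (Spearman 0.967), and at 0.917 once each group's mean was removed. These correlations are a description of a pair picked for its size. In whole liver, more RNA per cell and more cells of a type cannot be told apart.

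**Figure D1:**
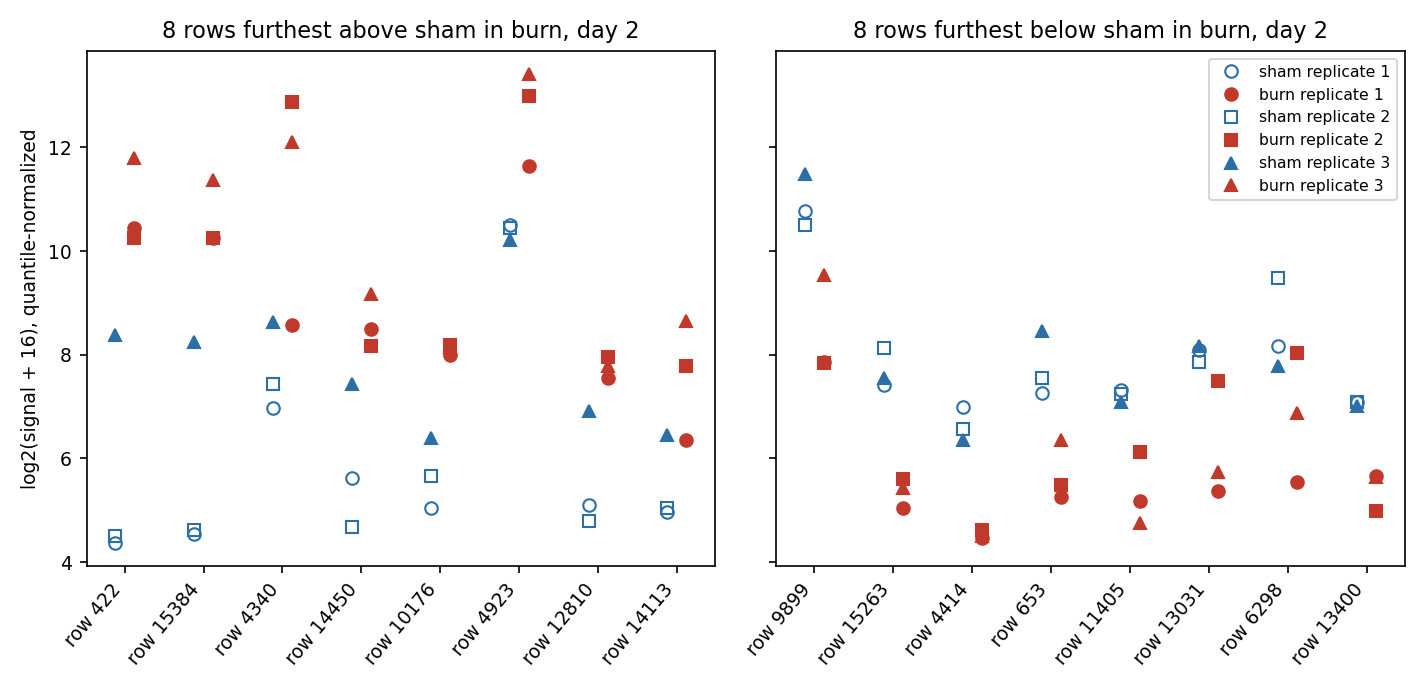
Quantile-normalized log2(signal + 16) of single rows on the 6 arrays of day 2, for the 8 rows furthest above sham in burn (left) and the 8 furthest below (right). Red marks are burn arrays, blue marks sham arrays, shapes the replicate number, and the filled blue triangle is sham replicate 3. It is the highest sham array in 7 of the 8 rows on the left, at 8.38 in row 422. The array was singled out for being high in such rows, and of all 15866 rows it is the highest sham array in 5579.

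Other rows among the 8 furthest above sham differed in how the arrays fell. Row 4340 was bright on burn replicates 2 and 3, at 12.88 and 12.11, but stood at 8.57 on burn replicate 1, just under the 8.63 of sham replicate 3. Sham replicates 1 and 2 read 6.97 and 7.44, so burn replicate 1 overlapped the sham group. The difference was 3.51 ± 0.91 (SE; limma adjusted p = 0.255), and 4.82 without burn replicate 1, the array whose description conflicts with its title (limma adjusted p = 0.0545). As that array was the lowest burn array of the row, a wider gap without it follows from leaving it out.

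Row 10176 had the tightest burn group of the 8, at 7.99, 8.19 and 8.14, against 5.04, 5.66 and 6.40 in sham, a difference of 2.41 ± 0.53 (SE; limma adjusted p = 0.163). Row 4923, a bright row, read 11.63, 12.98 and 13.41 in burn and 10.51, 10.45 and 10.21 in sham, a difference of 2.28 ± 0.65 (SE; limma adjusted p = 0.296). It was the one row of the 8 in which sham replicate 3 was the lowest sham array. Rows 14450, 12810 and 14113 differed by 2.70, 2.16 and 2.11. In these 3 rows sham replicate 3 stood at 7.43, 6.92 and 6.46, above replicates 1 and 2, which lay between 4.67 and 5.63. In row 14113 it also stood above burn replicate 1, at 6.36.

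Differences in the other direction were smaller. Row 9899 read 7.87, 7.84 and 9.53 in burn and 10.78, 10.51 and 11.48 in sham, and differed by -2.51 ± 0.67 (SE; limma adjusted p = 0.263). Row 15263 read 5.04, 5.60 and 5.44 in burn and 7.41, 8.13 and 7.55 in sham, and differed by -2.34 ± 0.53 (SE; limma adjusted p = 0.163). In both, every burn array lay under every sham array, and sham replicate 3 was not the sham array nearest to burn. Row 4414 went from a deposited signal of 67.7 to 108 in sham to one of 6.7 to 7.6 in burn, with log2 levels of 4.46, 4.63 and 4.51 against 6.99, 6.56 and 6.35. Its difference of -2.10 ± 0.61 (SE; limma adjusted p = 0.307) was the most uniform in burn of the 8 rows furthest below sham. It was -1.05 with 64 added to the signal and -3.38 with 1 (limma adjusted p = 0.348 and 0.278).

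Row 653 differed by -2.06, row 11405 by -1.86, row 13031 by -1.84, row 6298 by -1.66 and row 13400 by -1.63. Only row 6298 of these 8 had overlapping arrays, with burn replicate 2 at 8.04 and sham replicate 3 at 7.78. The 8 rows were picked for size on the same arrays, and 6.86% of all rows lay lower in burn without overlap. In row 13031, burn replicate 2 stood apart at 7.49, where the other burn arrays read 5.38 and 5.74 and sham read 7.86 to 8.17. Without that array the difference was -2.48, with a limma adjusted p of 0.000548, against a limma adjusted p of 0.141 with all arrays. In row 11405 it was -2.24 without that array (limma adjusted p = 0.0117, against 0.0926 with all arrays). Burn replicate 2 was the burn array nearest to sham in both rows. A wider gap and a smaller p thus follow from leaving it out and are no support for these rows. Sham replicate 3 was the highest sham array in 3 of these 8 rows and the lowest in 4. Of all 15866 rows it was the highest in 5579 and the lowest in 5506.

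Across all rows, limma called 0 of 15866 on day 2 (0%), with a smallest adjusted p of 0.0926. An unadjusted p under 0.05 was reached by 1400 rows (8.82%), of which 698 were higher and 702 lower in burn. An adjusted p under 0.1 was reached by 14 rows, 9 higher and 5 lower. The count of calls was 0 in 24 of 32 alternative settings and array omissions, and at most 32, when the variance was fitted robustly along a trend with intensity.

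Apart from row 11405, the 4 rows of smallest p in each direction were not among the 8 of largest difference. Row 7398, a dim row, read 6.12, 5.95 and 6.77 in burn and 4.76, 4.84 and 5.28 in sham, a difference of 1.32 ± 0.20 (SE). Its 12 arrays of days 4 and 7 all lay between 4.65 and 5.28, so the burn arrays of day 2 stood apart from every other array of the row. Row 2378 differed by 0.83 ± 0.14 (SE) and row 10383 by -0.62 ± 0.10 (SE). In row 10383 all 3 sham arrays lay within 9.89 to 9.94 and the burn arrays within 9.17 to 9.41. Row 2296 read 5.88, 6.46 and 6.04 in burn against 7.55, 7.82 and 7.46 in sham, a difference of -1.48 ± 0.26 (SE). All of these rows, and rows 11405, 1945 and 7108, shared the smallest limma adjusted p of 0.0926.

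Among very bright rows, some had arrays close together within each arm and others did not. Row 1945, at percentile 99.6 of level, had a deposited signal of 23815, 23905 and 23934 in burn. Its log2 levels were 14.69, 14.60 and 14.58, against 13.50, 13.58 and 14.04 in sham, a difference of 0.92 ± 0.16 (SE). Row 7108 read 12.52, 12.98 and 12.92 against 11.22, 11.60 and 12.15, a difference of 1.15 ± 0.20 (SE). Row 12107 read 14.33, 14.44 and 14.46 against 13.17, 13.06 and 13.96, a difference of 1.01 ± 0.24 (SE; limma adjusted p = 0.196). In all 3 rows sham replicate 3 was the sham array nearest to burn.

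Row 7836 differed by 1.20 ± 0.27 (SE; limma adjusted p = 0.163), without overlap. Row 7265 differed by 1.93 ± 0.92 (SE; limma adjusted p = 0.577), and there sham replicate 3, at 14.18, was above all burn arrays (13.55 to 14.06), while sham replicates 1 and 2 read 10.46 and 11.02. Among bright rows lower in burn, row 12619 read 10.97, 10.90 and 10.71 against 12.60, 12.44 and 11.74, a difference of -1.40 ± 0.26 (SE; limma adjusted p = 0.0996). Sham replicate 3 again lay nearest to burn. The other bright rows furthest below sham, rows 11969, 4054 and 4033, differed by -1.04, -0.96 and -0.74, and their arrays overlapped.

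Rows in the middle of the range that were above a log2 level of 7 on all 6 arrays and did not overlap gave further examples. Row 13294 read 10.72, 10.83 and 10.98 in burn and 8.41, 9.14 and 9.27 in sham, a difference of 1.90 ± 0.35 (SE; limma adjusted p = 0.0996). Row 930 differed by 1.74 ± 0.40 (SE) and row 5771 by 1.80 ± 0.39 (SE). Downward, row 15245 differed by -1.49 ± 0.33 (SE) and row 1558 by -1.26 ± 0.42 (SE). None of them was called.

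The size of the differences depended on signal level. In 13.2% of rows all burn arrays lay to one side of all sham arrays, with 1007 higher (6.35%) and 1089 lower in burn (6.86%). With 3 arrays against 3 that do not differ by arm, such a split has a probability of 0.1. Day 4 had 1214 such rows higher and 1142 lower in burn, and day 7 had 1245 and 1263, more than day 2. At least 2-fold apart as well on day 2 were 128 rows higher (0.807%) and 81 lower (0.511%). In 5 equal bins of mean level, from dim to bright, there were 44, 44, 19, 10 and 11 such rows higher in burn and 37, 25, 9, 4 and 6 lower. Most of these rows therefore lay in the dimmer bins, where the median SE was 0.36 and 0.31, against 0.15 in the brightest. The share of rows at an unadjusted limma p under 0.05 was 7.75% in the dimmest bin and 10.2% in the brightest. In the brightest bin, 304 rows without overlap were lower in burn and 229 higher, while the rows at least 2-fold apart were more often higher.

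**Figure D2:**
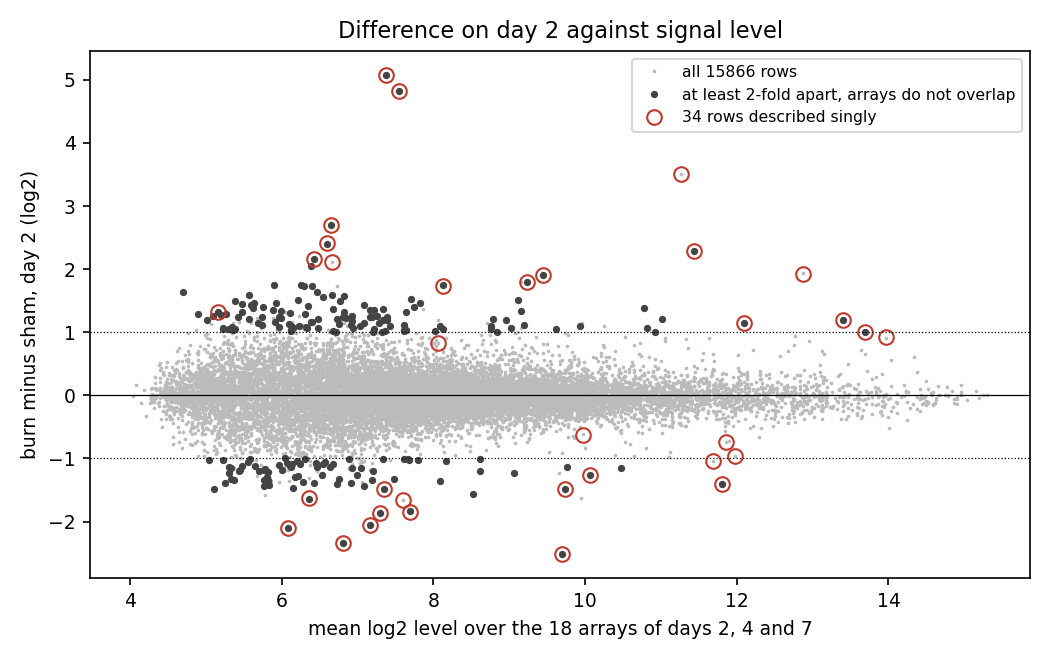
Difference between burn and sham on day 2 (vertical axis, log2) against the mean log2 level over 18 arrays (horizontal axis), 1 point per row. Black points are the 128 and 81 rows at least 2-fold apart (dotted lines) without overlap, red rings the 34 rows described singly, and the spread narrows from dim to bright rows.

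Sham replicate 3 stood out among the 6 arrays. It correlated with the 3 burn arrays at 0.962 to 0.965 over all rows, and with the other sham arrays at 0.958 and 0.960. Sham replicates 1 and 2 correlated with each other at 0.965 and with burn arrays at 0.953 to 0.958. Burn replicate 1, whose description speaks of a sham control, correlated with the other burn arrays at 0.960 and 0.962, with sham replicates 1 and 2 at 0.953 and 0.956, and with sham replicate 3 at 0.962. It was thus nearer to the other burn arrays than to sham replicates 1 and 2.

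To see where each array lay in rows it had no part in choosing, each was held out in turn. Sham replicate 3 had itself been singled out for being high in the rows furthest above sham. Its place in rows higher in burn thus partly restates that choice. Rows at least 2-fold apart without overlap were taken from the other 5 arrays, and the held-out array was placed on the way from the sham mean (0%) to the burn mean (100%). In rows higher in burn, the median position was 62.5%, 77.1% and 63.9% for burn replicates 1, 2 and 3. It was 39.4% and 29.9% for sham replicates 1 and 2, but 66% for sham replicate 3, over 241 rows. Positions of burn and sham arrays are not on a like scale. With a sham array held out, 3 burn arrays are set against 2 sham arrays, and the mean of fewer arrays strays further by noise. An array with no lean would then lie nearer to burn than to sham, and a held-out burn array with no lean nearer to sham. Sham replicate 3 can therefore be set beside sham replicates 1 and 2, but not beside the burn arrays. It was nearer to burn than to sham in 154 of these 241 rows (63.9%), against 43.2% and 37.4% for sham replicates 1 and 2.

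In rows lower in burn the held-out burn arrays lay less far toward burn, at 44.4%, 40.7% and 26.7% of the way. Sham replicates 1 and 2 lay at 30.6% and 37.2%, on a scale that again differs from that of the burn arrays. Sham replicate 3 lay at 63.4%, over 177 rows, further toward burn than sham replicates 1 and 2. What position an array with no lean would take was not computed, so no position shows by itself a lean toward an arm. These positions are a description, since rows picked on 5 arrays overstate the gap between those arrays.

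**Figure D3:**
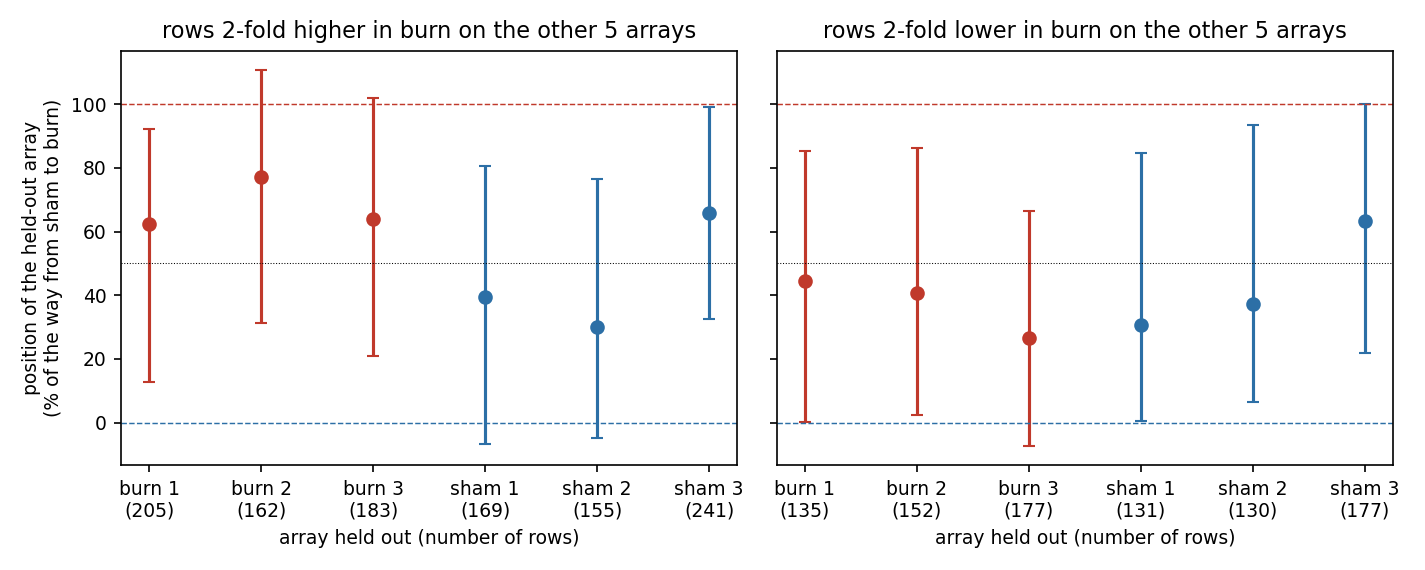
Position of each day 2 array in rows chosen on the other 5 arrays (vertical axis, percent of the way from the sham mean at 0 to the burn mean at 100), for rows 2-fold higher (left) and lower (right) in burn. Points are medians over rows and bars the 25th to 75th percentile, and sham replicate 3 sits at 66% and 63.4%. Burn and sham arrays are not on a like scale, since the arm of the held-out array has fewer arrays left.

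The same 241 rows gave a scale for the later arrays, which had no part in choosing them. Sham arrays of days 4 and 7 lay between 44.6% and 62.8% of the way, burn arrays of day 4 between 40.3% and 55%, and burn arrays of day 7 between 70.5% and 84.3%. Sham replicate 3 of day 2, at 66%, was thus nearer to the later sham arrays than sham replicates 1 and 2, which define 0% and are low in these rows by choice. In the 177 rows lower in burn this was not so for every array: sham replicate 3 lay at 63.4%, beyond all later sham arrays, which ran from 19.8% to 52.2%. Sham replicates 1 and 2 of day 7, at 19.8% and 29.6%, were nearer to 0%, and burn arrays of day 7, at 36.4% to 57.2%, overlapped the later sham arrays. Across all rows, sham replicate 3 minus replicate 1 correlated at 0.178 with burn minus replicate 2, and replicate 3 minus replicate 2 at 0.189 with burn minus replicate 1. For replicate 1 minus replicate 2, against burn minus replicate 3, it was 0.013. These differences share no array, are across 15866 rows, and carry no test.

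The ratio of the 3' to the 5' control probe set listed as beta-actin (Actb) moved with the same arrays. Such a ratio is a measure of how far RNA or its copies are shortened. These control rows were taken by name, although the names of other rows do not match values. Control rows listed as spiked bioB, bioC, bioD and cre rose in that order on all 6 arrays. Whether the rows listed as Actb, or as Gapdh below, hold these transcripts was not checked here. On the log2 scale the ratio was 0.11, 0.35 and 0.31 on burn arrays, and 0.91, 0.62 and 0.34 on sham replicates 1, 2 and 3. Burn averaged 0.26 ± 0.13 and sham 0.62 ± 0.28 (SD, n = 3 each; two-sided exact permutation p = 0.2, adjusted 0.6 over 4 such values), where 3 arrays against 3 cannot go below 0.1. The like log2 ratio of rows listed as Gapdh was 0.20, 0.34 and 0.30 on burn arrays. On sham replicates 1, 2 and 3 it was 0.66, 0.51 and 0.23 (two-sided exact permutation p = 0.3, adjusted 0.6). Sham replicate 3 lay with the burn arrays in both ratios. With the Actb ratio as a covariate limma called 0 rows, and 1022 had an unadjusted p under 0.05. The differences of rows 422 and 15384 were then 4.74 and 4.82 (limma adjusted p = 0.495 and 0.491). Some other rows shrank, such as row 14450 from 2.70 to 1.74, row 10176 from 2.41 to 1.62 and row 7836 from 1.20 to 0.78 (limma adjusted p = 0.795, 0.673 and 0.673). Others grew, such as row 653 from -2.06 to -2.59 and row 1558 from -1.26 to -1.74 (limma adjusted p = 0.491 and 0.514). The part of RNA quality in the held-out positions was not tested.

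Without sham replicate 3, limma called 20 rows on day 2, 18 higher and 2 lower in burn. This array was singled out for being high in the rows furthest above sham, so a wider gap and a smaller p in such rows follow from leaving it out and are no support for them. Row 422 then differed by 6.39 ± 0.81 (SE; limma adjusted p = 0.00522) and row 15384 by 6.04 ± 0.73 (SE; limma adjusted p = 0.0046). Also called were rows 1945, 7108, 7398, 12107 and 12619, and 6 of the 20 were among the brightest 5% of rows. With replicate 3 kept, leaving out sham replicate 1 or 2 instead gave 0 calls each, with a smallest limma adjusted p of 0.289 and 0.22. Without both sham replicate 3 and burn replicate 1 there were 27 calls.

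Days 4 and 7, measured on other arrays against sham arrays of their own, were set beside day 2. Among the 128 rows at least 2-fold higher on day 2, 87 (68%) were higher in burn on day 7, against 48% of all rows, with a median difference of 0.33 against -0.01. On day 7, 21 of the 128 were again at least 2-fold higher without overlap, where 0.813% of all rows were. An unadjusted limma p under 0.05 on day 7 was reached by 35 of the 128 as higher and 3 as lower. Of all 15866 rows, 849 reached it as higher and 714 as lower (9.85% in either direction). On day 4, 51 of the 128 (39.8%) were higher in burn, against 49.7% of all rows, with a median of -0.12. At least 2-fold higher without overlap on day 4 were 7 (0.416% of all rows) and as far lower 7 (0.492%). An unadjusted limma p under 0.05 was reached on day 4 by 15 as higher and 17 as lower. Of all 15866 rows, 789 reached it as higher and 693 as lower (9.34% in either direction). Most of the 128 rows, like most rows as far lower on day 2, lay in the dimmer bins, where the SE was larger. The share over all rows is therefore not a like baseline for these counts. By direction, the rows far above sham on day 2 leaned upward on day 7 and not on day 4.

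Of the 81 rows at least 2-fold lower on day 2, 51 (63%) were lower in burn on day 7, against 52% of all rows, and 44 (54.3%) on day 4, against 50.3%. Their medians were -0.26 and -0.07, and 5 were again at least 2-fold lower without overlap on day 7 (0.548% of all rows). On values as deposited, the share lower on day 7 was 46.2%, so that this direction depended on the normalization. None of the 128 or 81 rows was called on days 4 or 7, where limma called 0% and 0.0504% of all rows.

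Among single rows, row 422 differed by 3.69 ± 0.97 (SE; limma adjusted p = 0.192) on day 7 and by 2.25 ± 0.97 (SE; limma adjusted p = 0.498) on day 4. Its burn arrays read 10.13, 8.74 and 9.95 on day 7 and 6.54, 8.02 and 6.97 on day 4. Sham arrays of those days were dim, at 4.65 to 5.08, except for sham replicate 3 of day 7, at 8.03. The bright row 1945 was called on day 7, at 1.07 ± 0.16 (SE; limma adjusted p = 0.0233), with burn arrays at 14.20 to 14.69 and sham arrays at 13.26 to 13.59. On day 4 it differed by 0.39. Row 10383 was called on day 7 too, at -0.68 ± 0.10 (SE; limma adjusted p = 0.0233), and differed by -0.16 on day 4. These were 2 of the 34 rows described singly.

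Of the 18 single rows higher in burn on day 2, 13 were also higher on day 4 and 13 on day 7. Of the 16 lower, 15 were lower on day 4 and 11 on day 7. Row 5771 was among the exceptions: it read 9.08, 9.98 and 10.71 in burn and 8.09, 8.17 and 8.11 in sham on day 2, but 8.71, 8.49 and 8.83 in burn and 9.93, 9.78 and 10.46 in sham on day 4. Neither day's arms overlapped, and the order was turned. The effects of the 2 days differed by 3.18 ± 0.55 (SE; limma adjusted p = 0.141).

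**Figure D4:**
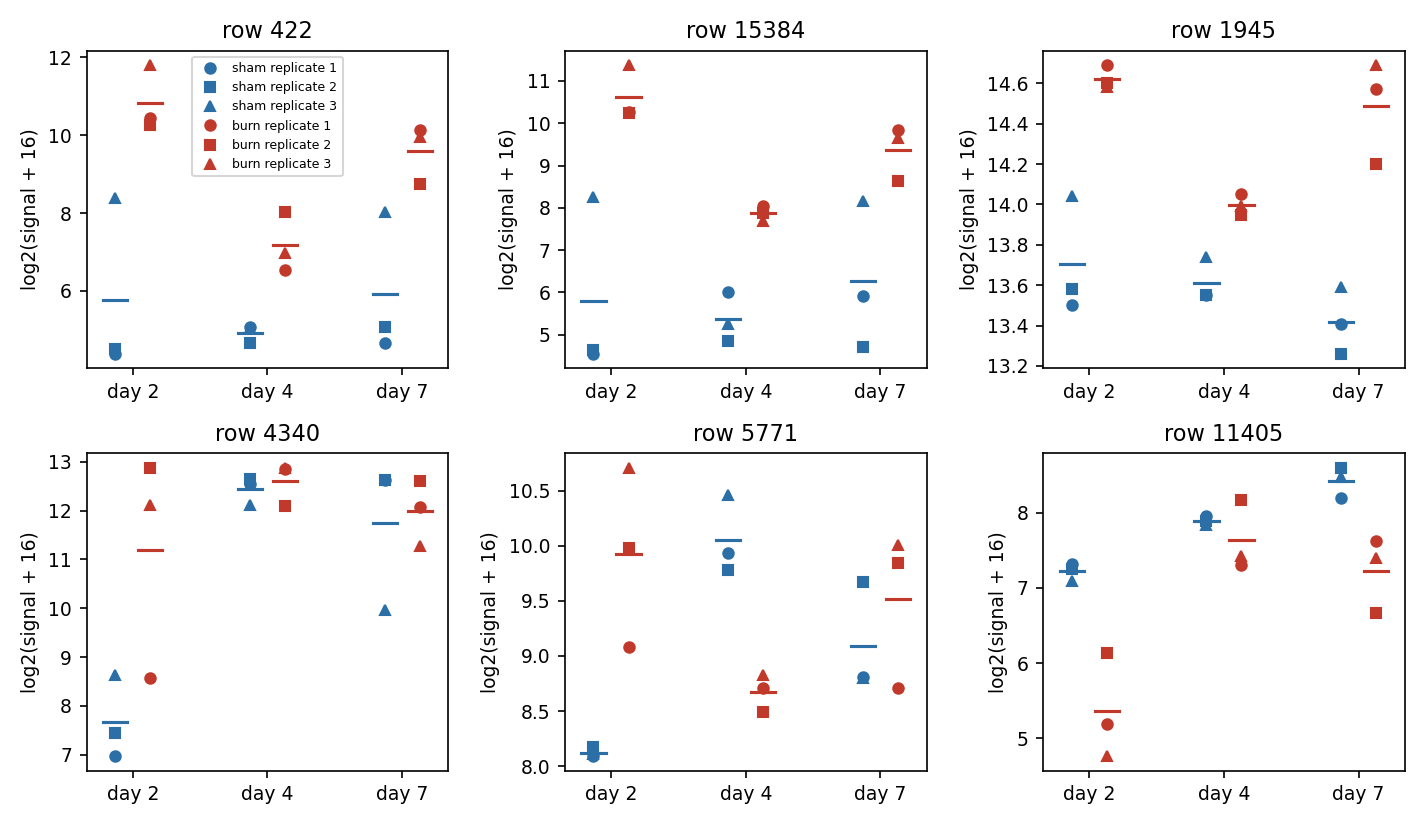
Log2(signal + 16) of 6 rows on each array of days 2, 4 and 7, with sham in blue, burn in red, shapes for replicate numbers and short lines for group means of 3 arrays. Rows 422, 15384 and 1945 are higher in burn on each day, row 4340 is low on 4 arrays of day 2, row 5771 turns between days 2 and 4, and row 11405 is lowest in burn on day 2.

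Whether the burn effect of day 2 differed from that of day 7 or of day 4 was tested directly. Limma called 0 rows (0%) in each test, with smallest adjusted p of 0.095 and 0.141 and an unadjusted p under 0.05 was reached by 1016 (6.4%) and 1349 rows (8.5%). No row was thus shown to differ in effect between day 2 and either later day. For row 422 the difference between effects was 1.39 ± 1.38 (SE; limma adjusted p = 0.9) against day 7 and 2.83 ± 1.38 (SE; limma adjusted p = 0.603) against day 4.

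**Figure D5:**
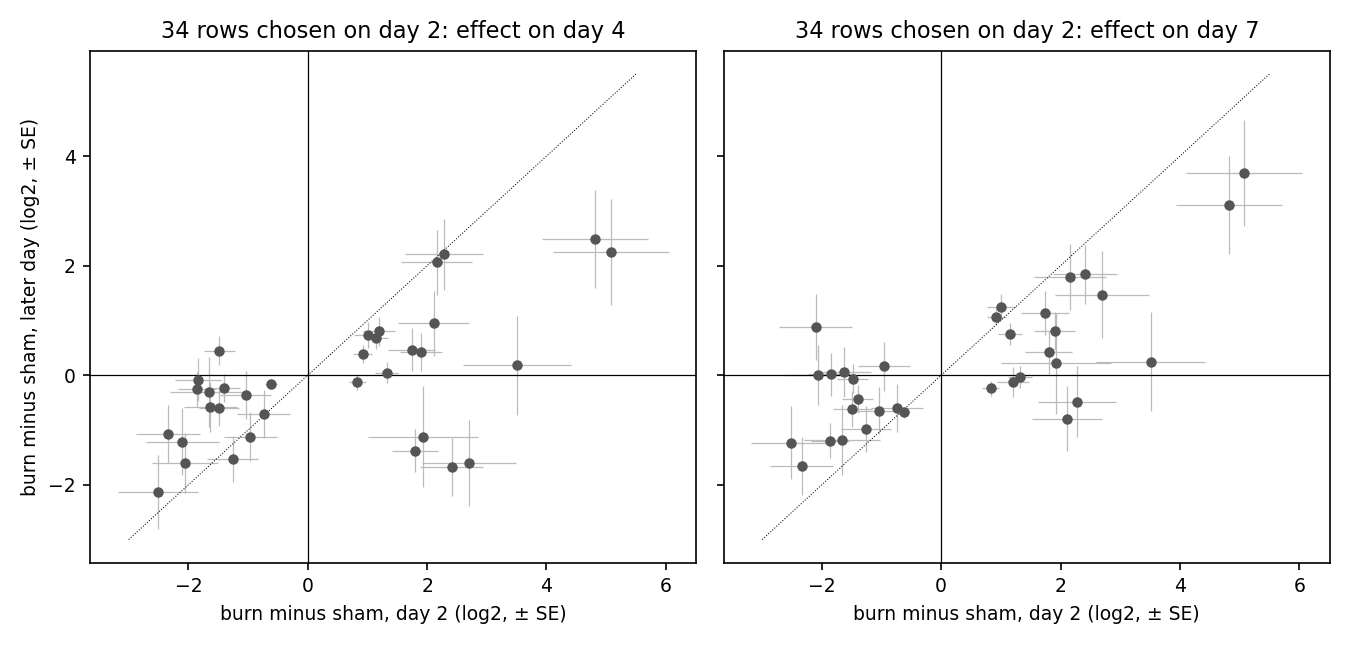
Burn minus sham on day 4 (left) and day 7 (right) against the same on day 2, in log2 with SE bars, for the 34 rows described singly, which were chosen on day 2. Rows 422 and 15384 lie at the upper right in both panels, and 13 of 18 rows higher in burn on day 2 lie above 0 in each panel.

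Each arm of day 2 was also set against its own later days. Burn arrays of day 2 differed from those of days 4 and 7 in 19 rows (0.12%), 8 higher and 11 lower on day 2, or 5 higher and 4 lower with median scaling. With the Actb ratio as a covariate limma called 0 rows (the lowest adjusted p was 0.0981, and 1484 rows had an unadjusted p under 0.05), so that the calls named next were all lost. Row 11405 was lower by -2.07 ± 0.27 (SE; limma adjusted p = 0.00587) and row 7398 higher by 1.34 ± 0.17 (SE; limma adjusted p = 0.00587). Rows 2296, 10383 and 15245 were lower by -1.56, -0.63 and -1.62 (limma adjusted p = 0.0106, 0.0081 and 0.0432). Sham arrays of day 2 differed from later sham arrays in 1 row (0.0063%), row 6139, which lies outside the rule for named rows and is given because it was the only one. It averaged 8.62 in sham on day 2, against 9.65 and 9.98 in sham on days 4 and 7 and 9.67 in burn on day 2. The count without single arrays ran from 0 to 8.

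In row 4340 the sham arm of day 2 differed from later sham by -4.41 ± 0.79 (SE; limma adjusted p = 0.142), and the row was not called. Its later sham arrays read 9.97 to 12.64 and its later burn arrays 11.28 to 12.88, so the sham arrays and burn replicate 1 of day 2 were the low ones. Row 5771 had its sham arm lower by -1.45 ± 0.33 (SE; limma adjusted p = 0.185) on day 2. In row 422 the sham arm differed by only 0.33 ± 0.84 (SE; limma adjusted p = 0.919).

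Against the 6 sham arrays of days 4 and 7, the burn arrays of day 2 differed in 301 rows (1.9%), 135 higher and 166 lower. Day and treatment cannot be told apart in this comparison, which has 6 control arrays in place of 3. The count fell to 81 without burn replicate 2, 94 without burn replicate 1 and 150 without burn replicate 3 of day 2, and was 0 with the Actb ratio as a covariate. Of the 34 rows described singly, 17 were called here, but they were chosen on the same burn arrays. Row 422 was higher by 5.41 ± 0.84 (SE; limma adjusted p = 0.00794) and row 15384 by 4.81 ± 0.77 (SE; limma adjusted p = 0.00884), close to their differences against the sham arrays of day 2. Row 4340, at -0.90 ± 0.79 (SE; limma adjusted p = 0.59), was not higher than later sham.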

How the data were processed

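The deposited table gives 1 linear intensity per probe set and array for 15923 probe sets. No source used here names the software. On each day 2 array the mean without the extreme 2% of values at either end was 500.2, so that the authors' deposited intensity appears scaled to a common mean, judged from the values. Median signal ran from 193 to 221 on the 6 arrays. The number of arrays limits the precision.

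From there, log2(signal + 16) was quantile-normalized over 24 arrays, and 15866 rows of the 18 arrays of days 2, 4 and 7 were fitted with limma 3.58.1 in R 4.3.3 (1 mean per group, lmFit and eBayes, 12 residual degrees of freedom, two-sided, Benjamini-Hochberg). Day 1 was left out because its rows did not correspond to the others in an earlier account of these data.

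Rows named were, in each direction, those with the 8 largest differences, the 4 of smallest p, the 4 largest among the brightest 5%, and the 4 largest without overlap and above level 7 on all 6 arrays; called rows would have been named too. The comparison, the rules and the alternatives were chosen with earlier results of these data known. Holding out arrays and the likeness of rows were added after the values were seen. Files and labels give no batch.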

Additional observations from a re-analysis of the deposited data

Results flagged for a closer look

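In 9 of the 34 rows described singly, all burn arrays of day 2 were above the mean of their sham arrays and all those of day 4 or 7 below it, or the reverse. The difference between the effects of the 2 days, burn minus sham on day 2 minus the same on the other day, was tested in limma and called in none of them. Against day 4 it was 4.09 ± 0.75 (SE) in row 10176, 3.18 ± 0.55 (SE) in row 5771, 3.05 ± 1.30 (SE) in row 7265, 0.96 ± 0.19 (SE) in row 2378 and -1.93 ± 0.37 (SE) in row 2296. The limma adjusted p were 0.141, 0.141, 0.546, 0.153 and 0.141. Against day 7 it was 2.76 ± 0.92 (SE) in row 4923, 2.90 ± 0.83 (SE) in row 14113, 1.31 ± 0.38 (SE) in row 7836, 1.07 ± 0.19 (SE) in row 2378 and -2.98 ± 0.86 (SE) in row 4414. The limma adjusted p were 0.709, 0.652, 0.652, 0.302 and 0.652.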

How the results depend on the processing

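Counts are rows called by limma. For burn against sham on day 2 (0) there were 7 with a pseudocount of 64, 13 without the dimmest 33.3% of rows and 32 with an intensity trend and robust variance (23 higher, 9 lower). They were 0 as deposited, with median scaling, array weights, a pseudocount of 1, the 6 arrays alone, either replicate block and the Actb ratio. For burn on day 2 against burn on days 4 and 7 (19) there were 9 with median scaling, 35 with a pseudocount of 64, 47 without dim rows, 88 with trend, 0 with the Actb ratio and 0 against a log2 change of 1. For burn on day 2 against later sham (301) the same settings gave 223, 477, 565, 611, 0 and 0, and a replicate block over the series 191. For sham on day 2 against later sham (1) there were 0 as deposited, 2 with median scaling, 0 and 4 with pseudocounts of 1 and 64, 4 without dim rows, 4 with trend, 3 with the block over the series, 0 with the ratio and 0 against a log2 change of 1. Rows at least 2-fold apart without overlap were 34 higher and 16 lower with a pseudocount of 64, and 188 and 147 with 1. What causes these shifts was not tested. The block within days gives no value for an arm against later days, and the 6 arrays alone give one for day 2 only.

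With single arrays omitted, calls on day 2 numbered 0 to 20: 20 when sham day 2 replicate 3 was left out, 7 for burn day 7 replicate 2, and 5 and 1 for burn day 2 replicates 2 and 3. There were also 1103 to 1813 rows at an unadjusted p under 0.05. Effects differing from day 7 numbered 0 to 2 and from day 4 0 to 14 (14 without sham day 2 replicate 3). Against the same arm's later days the counts were 12 to 37 for burn (37 without burn day 2 replicate 3, 12 without burn day 7 replicate 3) and 0 to 8 for sham, and against later sham 81 to 378. Besides the day 2 burn arrays, sham replicates 1 and 2 of day 4 (171 and 122) and 1 and 3 of day 7 (144 and 128) lowered the last. Rows 2-fold apart became 155 to 241 higher and 130 to 177 lower, with only 2 arrays left in an arm. Without both burn replicate 1 and sham replicate 3 of day 2, an alternative added after the data were seen, there were 27 calls on day 2, 2 and 4 effects differing from days 4 and 7, 19 and 12 for the 2 arms, 113 against later sham, and 338 and 258 rows 2-fold apart. Of rows 2-fold lower on day 2, the share lower on day 7 was 46.2% as deposited, and with a pseudocount of 64, which left 16 such rows, 75% were lower on day 7 and 87.5% on day 4. The share lower on day 4 ran from 49.2% to 58.5% with an array left out (49.6% without both).

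Equal replicate numbers gave no sign of pairing on day 2. Deviations from the group means correlated at -0.034, -0.033 and 0.005, and 1 of 3 sham arrays correlated best with its own number. So few arrays cannot exclude a pairing. With the numbers as a replicate block within days limma called 0 rows on day 2 (smallest adjusted p 0.0953; 1427 at an unadjusted p under 0.05), and as a replicate block over the series 0 (0.073; 1363). The sign of the difference turned in 0 of 434 refits of the single rows by another setting and in 0 of 646 by an omitted array, which tests little in rows picked for size.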

Other observations

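Rows most like row 422 in level over the 18 arrays, by Pearson correlation, were picked after their values were seen. After row 15384 (0.977) they were rows 12107 (0.944), 9272 (0.925), 12810 (0.924) and 1945 (0.916). Of these, 12107, 9272 and 1945 are very bright, with mean levels of 13.69, 13.47 and 13.97, while row 12810 is dim at 6.43. Row 9272 read 13.68, 13.69 and 13.88 in burn and 13.22, 13.17 and 13.38 in sham on day 2, a difference of only 0.49. All 5 rows were higher in burn on each of days 2, 4 and 7 by the group means, and all 5 had sham replicate 3 as the highest sham array of day 2. The arrays share their groups, so these correlations partly restate the group means. Row 422 has both of these traits, so they follow in part from picking rows like it. Of all 15866 rows, sham replicate 3 was the highest sham array of day 2 in 5579.

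Row 7265 took levels in separate ranges: of its 18 arrays, sham replicates 1 and 2 of day 2 (10.46 and 11.02), burn replicate 1 of day 4 (10.85), and replicate 2 of both arms on day 7 (11.43 and 11.07) lay low, and the others at 13.28 to 14.18. Its low arrays did not follow burn or sham.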
